A study of Mus musculus with 8 samples.

Results

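The peaks described here are those of ALKBH5 whose summit, the position of highest signal, lay in either of 2 stretches of mouse chromosome 11. The distal block runs from 96 to 103 Mb and the proximal block from 67 to 71 Mb, in build GRCm39. They held 950 of the 72953 peaks of the 4 lists, 660 in the distal and 290 in the proximal block. The blocks had been picked because they held more peaks of the shortened protein in these same lists, so that excess is given as a description, with no test. The assay was eCLIP, where UV light fixes a protein to the RNA it touches before the protein is pulled down, in nuclei of E14TG2a mouse embryonic stem cells grown with serum, LIF, PD0325901 and CHIR99021. The first group was cells of the genotype Alkbh5 del-cIDR, which make ALKBH5 without the intrinsically disordered region at its C-terminal end (del-cIDR). The other was WT cells, which make the full-length protein. Each group had 2 immunoprecipitates, and the matching inputs were not analysed here. The sources used here do not say whether the del-cIDR line is a single clone or whether replicates came from separate cultures.

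ALKBH5 removes N6-methyladenosine, a common internal mark of messenger RNA, and works mainly in the nucleus. Its catalytic domain is folded, while the C-terminal tail has no fixed structure. Because eCLIP reports contacts with RNA, a peak on the genome marks a transcript that was made there, and a long nuclear transcript can carry a string of peaks along an intron or exon. The distal part of mouse chromosome 11 is known for the Hoxb cluster of developmental regulators and the type I keratin genes of epithelia, next to many broadly expressed genes. Peaks were not matched to genes here, since the annotation used here is on an older build, so positions stand in for names and the label "gene-dense" was not checked. The peaks carry no strand.

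The lists held 17584 and 18841 del-cIDR and 19892 and 16636 WT peaks, and the number of reads behind them is unknown. Counts per 10000 peaks of the own list are used below to set libraries of different length side by side.

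In the distal block the del-cIDR libraries had 236 and 248 peaks, against 96 and 80 in the WT libraries. Per 10000 peaks of the list these were 134 and 132 in del-cIDR, against 48.3 and 48.1 in WT. The means were 133 ± 1.83 in del-cIDR and 48.2 ± 0.122 in WT (SD, n = 2 each), a 2.76-fold ratio with no overlap between the genotypes. When peaks of a library within 5 kb were joined into 1, the block held 127 and 132 del-cIDR against 59 and 56 WT joined peaks, and the ratio per 10000 joined peaks was 1.75. The ratio thus depended on how closely spaced peaks were counted. Whether transcripts of the block were more abundant in del-cIDR cells, or bound more often each, was not tested.

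Both genotypes had more summits per window in the distal block than in the genome, and del-cIDR more so. Over the 3410 windows of 500 kb in the genome with at least 4 summits, the mean was 4.94 and 5.32 del-cIDR and 5.66 and 4.78 WT summits. The 14 windows of the distal block averaged 16.9 and 17.7 del-cIDR summits, or 3.41 and 3.33 times that mean. Their WT average was 6.86 and 5.71 summits, or 1.21 and 1.19 times the mean. The genome's windows were skewed, reaching 97 and 102 WT summits, and medians gave a larger difference. The median window of the block held 16 and 16.5 del-cIDR and 7.5 and 5 WT summits, against genome medians of 3 and 3 del-cIDR and 3 and 2 WT summits. Of the 14 windows, 13 and 13 lay above the genome median in the del-cIDR and 9 and 10 in the WT libraries.

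The excess was spread along most of the block. Of its 13 windows with at least 4 summits, 12 had both del-cIDR libraries above both WT libraries per 10000 peaks, and 0 had the reverse. Genome-wide 38.8% of windows met the first condition and 29.8% the second. The richest window, from 97.5 to 98 Mb, held 40 and 43 del-cIDR against 17 and 12 WT summits. The next, from 102 to 102.5 Mb, held 32 and 30 against 11 and 12. Both replicates of each genotype stood close together in these windows, and the genotypes did not overlap.

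The strength of the excess varied within the block. From 100 to 100.5 Mb there were 24 and 29 del-cIDR against 8 and 4 WT summits, a ratio of 4.52 per 10000. The highest ratio, 5.53, came from a thin window, 101.5 to 102 Mb, with 7 and 4 against 1 and 1. The window from 98 to 98.5 Mb was the exception, with 9 and 14 del-cIDR and 10 and 11 WT summits, where the genotypes overlapped. That window also held the widest WT peak of the block. Between 99.5 and 100 Mb no library had a summit. This lay in a gap of 751 kb between neighbouring summits of any library, from 99387590 to 100138196. In the WT lists the gap was wider, 1100 kb, from 99152352 to 100252614. Across the 14 windows the summed del-cIDR and WT counts had a Spearman correlation of 0.724, a description over windows that share their libraries.

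**Figure D1:**
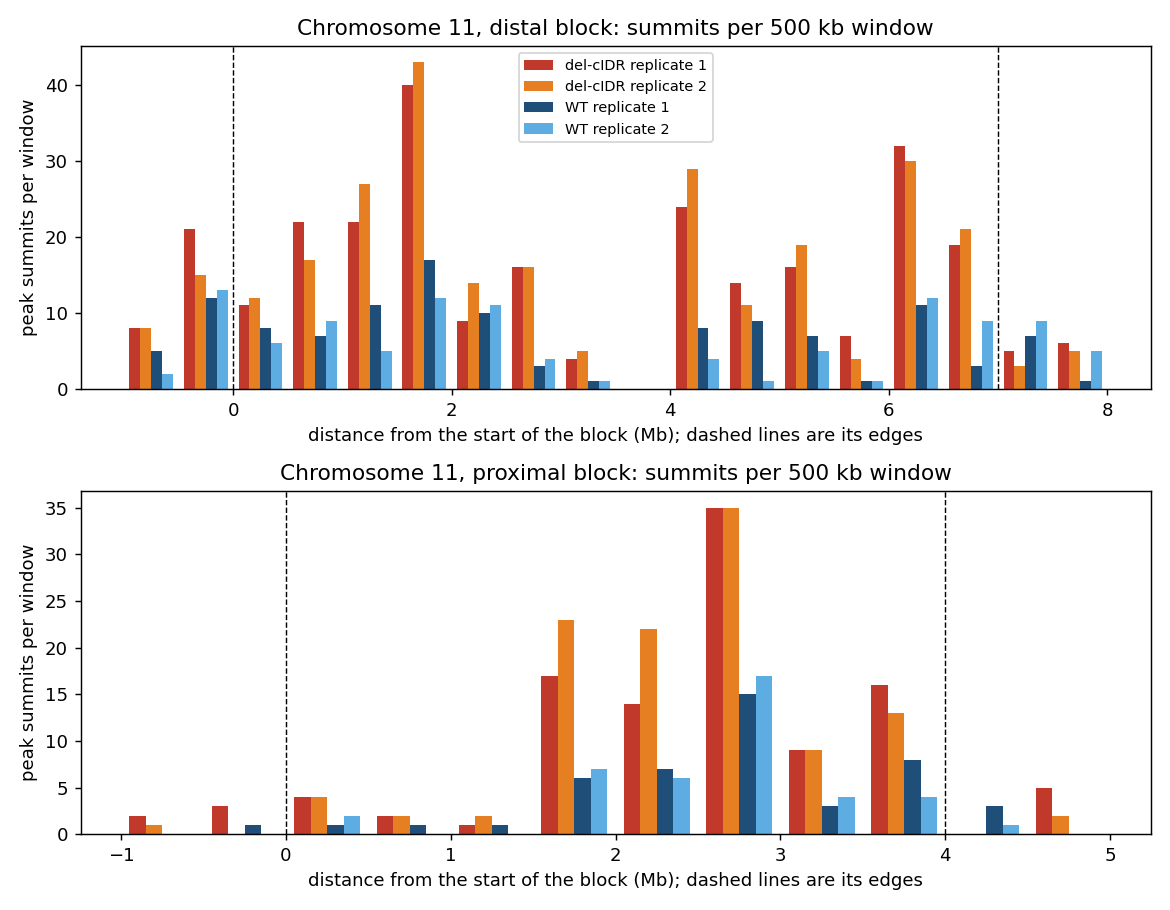
Peak summits per 500 kb window (vertical axis) by distance from the start of the distal (upper panel) and proximal block (lower panel), with 1 Mb on either side and a bar for each library. The del-cIDR bars reach 43 in the richest distal window, where the WT bars reach 17, and a window without any summit lies in the distal block.

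The genotypes differed on both sides of the lower edge and on the inner side of the upper edge. Just inside the lower edge, from 96 to 97 Mb, there were 33 and 29 del-cIDR against 15 and 15 WT summits. Just outside, from 95 to 96 Mb, there were 29 and 23 against 17 and 15, so del-cIDR was still higher there. Just inside the upper edge, from 102 to 103 Mb, the counts were 51 and 51 against 14 and 21. Beyond it, from 103 to 104 Mb, they were 11 and 8 against 8 and 14, and the genotypes overlapped.

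Typical peak width in the distal block was similar in size in all libraries, and the few broad peaks were mostly WT. Median widths were 347 and 374 bp in the del-cIDR libraries, against 365 and 285.5 bp in the WT libraries. The means of these, 360.5 ± 19.1 bp in del-cIDR and 325 ± 56.2 bp in WT (SD, n = 2 each), differed by 35.25 bp, less than the spread between the WT replicates. Leaving out WT replicate 2 turned the difference to -4.5 bp. The shortest peaks measured 300 and 301 bp in the del-cIDR lists and 297 and 243 bp in the WT lists. The part of these minimum widths in the medians was not tested. At least 2 kb wide were 1 and 1 peaks in del-cIDR, against 5 and 3 in WT. The whole lists held 16 and 26 such peaks in del-cIDR, against 825 and 361 in WT, so this order was not particular to the block. The widest measured 2316 and 2332 bp in del-cIDR, against 6399 and 6266 bp in WT. Peaks covered 104524 and 117092 bp in del-cIDR and 69540 and 45378 bp in WT, so del-cIDR covered more although its widest peaks were shorter. The shortest peaks allowed in each list made up 15.7% and 15.7% of the distal del-cIDR peaks, against 28.5% and 26.9% of those elsewhere in the same lists. For WT they made up 10.4% and 21.25% of distal peaks, against 12.4% and 17.1% elsewhere, so the WT libraries did not share a direction.

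**Figure D2:**
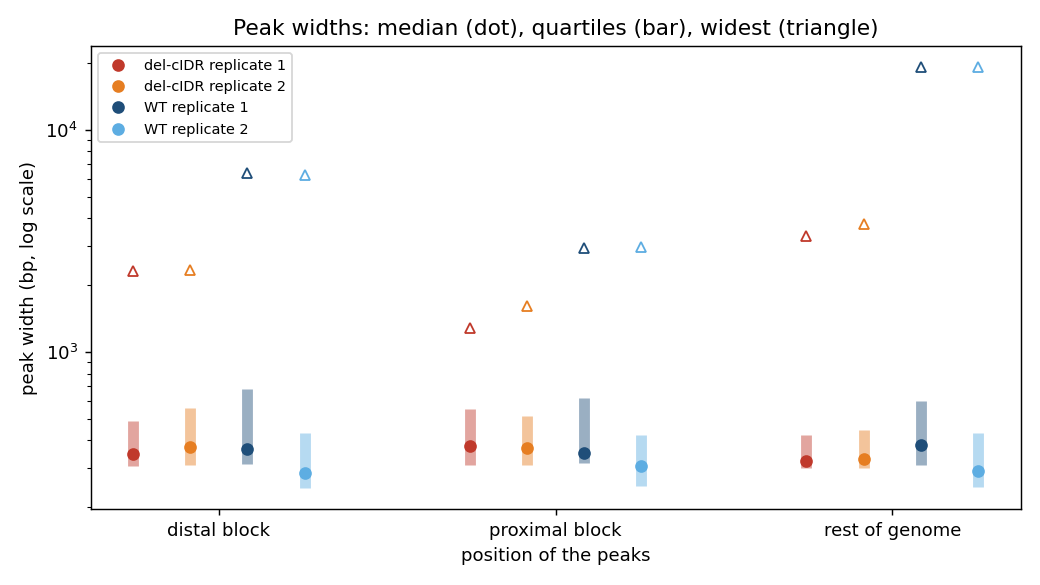
Peak width in bp on a log axis, by library and position, where dots are medians, bars run between quartiles and triangles mark the widest peak. Medians lie between 285.5 and 380 bp in every library and position, and the widest peaks are WT in both blocks and in the rest of the genome.

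Peaks of the 4 lists that overlapped by at least 1 bp were merged into 379 distal regions. The largest class found in both replicates of a genotype was del-cIDR alone, with 111 regions (29.3%, against 17.7% of all 43029 regions of the series). Both WT lists and neither del-cIDR list held 18 regions (4.75%, against 17.5% of all regions). All 4 libraries shared 17 regions (4.49%, against 4.7% of all regions). A single del-cIDR list held 70 and 79 further regions (18.5% and 20.8%, against 12.6% and 15.0% of all regions). A single WT list held 36 and 11 (9.5% and 2.9%, against 18.7% and 6.54%). The other 37 regions mixed the genotypes without holding all 4 libraries, as did 3149 of all 43029 regions. Of the 143 regions in both del-cIDR lists, 77.6% had no WT peak (exact 95% binomial interval 69.9 to 84.2%), and genome-wide it was 69.3%. Among peaks enriched 4-fold or more the share was 42.9%, 9 of 21 regions, and the genome-wide share at that threshold was not computed. Among the 46 that both WT lists shared, 39.1% had no del-cIDR peak (interval 25.1 to 54.6%), and genome-wide it was 71.8%. The blocks were chosen on this contrast, so nothing further is read from these shares. Binomial intervals here cover the counting of regions or peaks only.

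**Figure D3:**
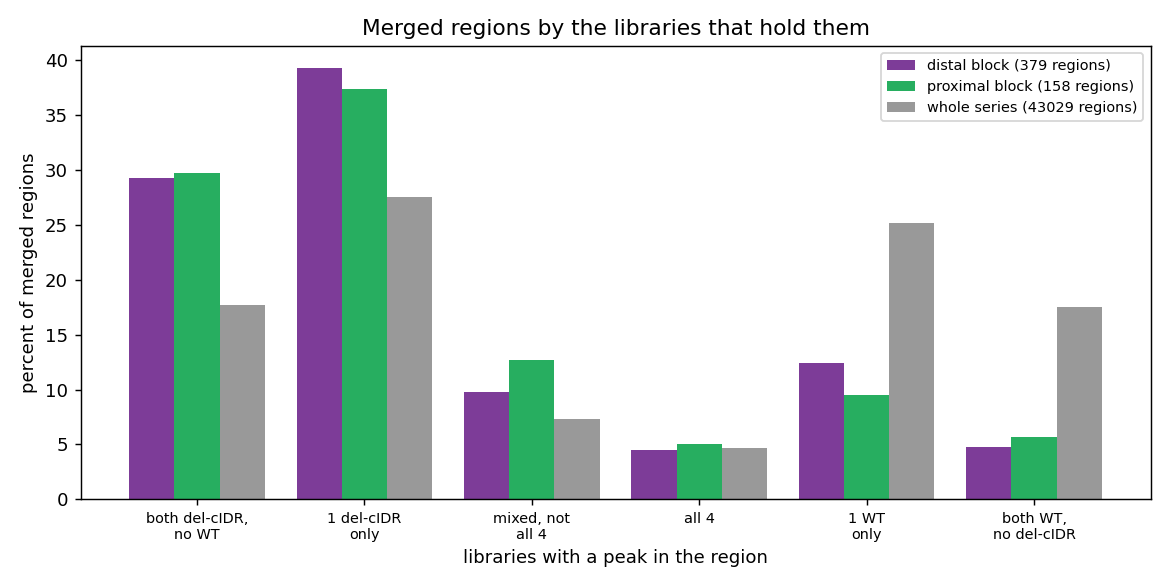
Percent of merged regions (vertical axis) by the libraries that hold them, for the distal block, the proximal block and the whole series. Regions of both del-cIDR lists alone make up 29.3% and 29.7% in the blocks and 17.7% in the series, and regions of both WT lists alone 4.75%, 5.70% and 17.5%.

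Regions of del-cIDR alone in the distal block had a median width of 512 bp (quartiles 380 and 710 bp), against 645.5 bp (quartiles 426.75 and 1407 bp) for those of WT alone. Ranked by −log10 q, the peak caller's measure of confidence, the leading region lay from 98364280 to 98364609. Its fold enrichment, the authors' own value per peak, was 7.58 and 7.47 in the 2 del-cIDR libraries, with ranks 152 and 177 in their lists. Summits fell on the same base in both replicates. The nearest WT peak was 121 kb away, so the site stood apart from WT binding.

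Most leading del-cIDR regions were of modest enrichment. The next in order lay from 97070705 to 97071150, with 3.91-fold and 3.41-fold enrichment. A pair of neighbouring regions was also among the 10, from 97920695 to 97920999 with 3.42-fold and 3.40-fold, and from 97917961 to 97918359 with 2.51-fold and 3.38-fold. The highest enrichment of the 10 belonged to a site of 301 bp from 99016000 to 99016300, with 16.2-fold and 17.5-fold. It lay 110 kb from any WT peak, and its summits in the replicates were 253 bp apart, nearly the width of the peak. The broadest region, from 100237979 to 100240310, was 2332 bp wide with only 2.38-fold and 2.78-fold enrichment, and held the only del-cIDR peaks of 2 kb or more in either block. The other members of the 10 lay from 97131916 to 97132440, from 97555461 to 97556201, from 97879463 to 97879763 and from 102208400 to 102208744, with 2.18-fold to 3.95-fold enrichment. Of the 10, 8 lost their class when peaks under 4-fold enrichment were left out. Over the whole class, 8 of 111 regions (7.21%) had at least 4-fold enrichment in both replicates.

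Of the 5 leading WT regions of the distal block, the first 3 were broad. The first spanned 6399 bp from 98042812 to 98049210, where enrichment was 11.6-fold and 8.62-fold, at ranks 349 and 524. It was called in both replicates, as peaks 6399 and 6214 bp wide. The second spanned 6318 bp from 102366572 to 102372889, with 10.9-fold and 7.74-fold. Another, of 3634 bp, lay from 101413761 to 101417394, with 6.12-fold and 5.44-fold. All 3 had a del-cIDR peak 7.09 to 11.98 kb from their ends and none inside. The remaining members of the 5 were narrow, from 98111918 to 98112234 with 6.87-fold and 7.95-fold, and from 98054398 to 98054736 with 4.12-fold and 6.0-fold. All 5 kept their class when peaks under 4-fold were left out. Over the whole class, 8 of 18 regions (44.4%) had at least 4-fold enrichment in both replicates.

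Short sites of high rank came first among the distal regions shared by all 4 libraries. The best, from 98005878 to 98006179, had 10.1-fold and 7.99-fold enrichment in del-cIDR and 9.67-fold and 3.78-fold in WT libraries. Its ranks were 122 and 166 in del-cIDR, the best of any distal peak in replicate 1, and 370 and 382 in WT. The region from 99152116 to 99152419 had 8.13-fold and 24.7-fold in del-cIDR and 11.97-fold and 14.8-fold in WT. It was the last WT site before the long gap. A site from 96657670 to 96657970 had 28.5-fold and 19.0-fold in del-cIDR and 14.5-fold and 9.75-fold in WT, with both del-cIDR values above both WT ones. Fold values of different lists rest on separate backgrounds and were not tested. The region from 97660369 to 97660669 was of the same narrow kind. The region from 98093641 to 98095494 was broad only in WT, with peaks 1854 and 1778 bp wide, and held 2 shorter peaks in each del-cIDR list.

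Del-cIDR summits of the distal block came in runs. Chaining summits of any library less than 10 kb apart gave 130 clusters, a description chosen after the values were seen. Of the 57 with at least 4 summits, 33 had both del-cIDR libraries above both WT libraries and 8 the reverse, against 30.6% and 34.8% of such clusters in the genome. The largest ran over 36.0 kb from 97554208 to 97590204, with 25 and 26 del-cIDR against 6 and 8 WT summits. The next ran over 34.0 kb from 102176312 to 102210274, with 20 and 20 against 3 and 4. It held the widest region shared by all 4 libraries, 3074 bp from 102179494 to 102182567. These 2 clusters held 18.8% of the del-cIDR summits of the block. Without them 393 del-cIDR and 155 WT summits remained over both replicates, a ratio of 2.54, so the excess was not theirs alone. A cluster from 100473718 to 100489286 had 9 and 10 del-cIDR summits and none listed for WT, and another from 102795980 to 102807022 had 6 and 7 against none. In the other direction, a cluster from 100348166 to 100368821 held 0 and 2 del-cIDR against 6 and 4 WT summits. Of all 130 clusters, 73 held del-cIDR summits alone, 12 WT summits alone and 45 both. The median cluster held only 3 summits and the genome-wide split was not computed, so nothing is read from these counts.

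**Figure D4:**
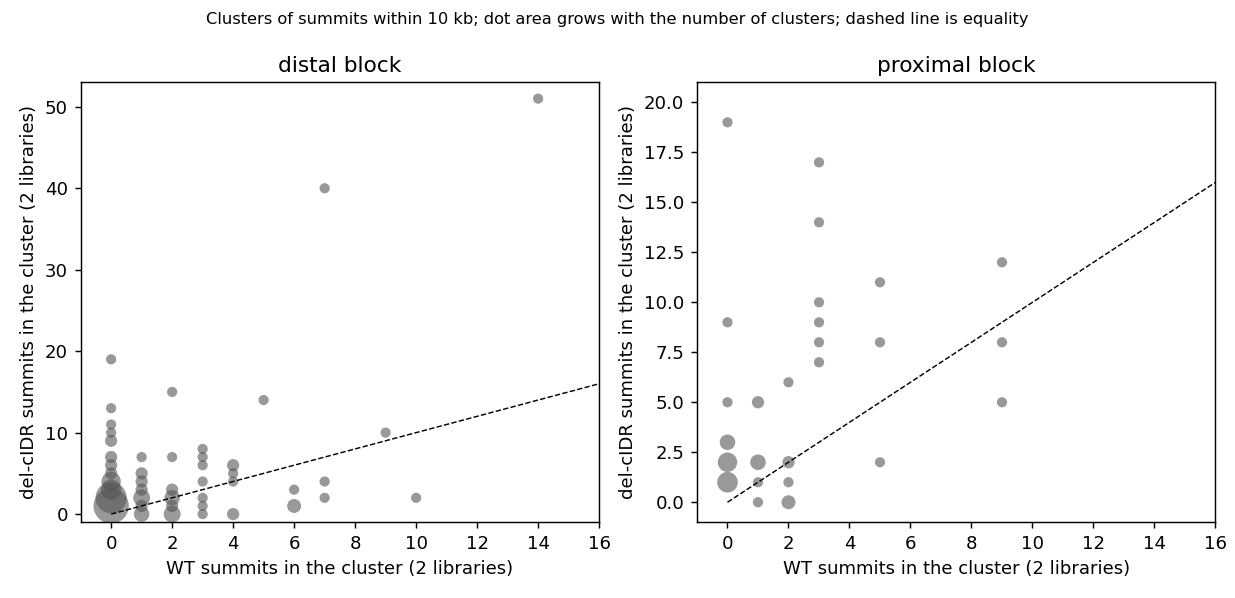
Each dot stands for the clusters of summits chained within 10 kb that share a pair of counts, its area growing with their number, with WT summits on the horizontal and del-cIDR summits on the vertical axis, summed over 2 libraries each, for the distal (left) and proximal block (right). The distal cluster at 51 del-cIDR against 14 WT summits stands far above the dashed line of equality.

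In the proximal block the del-cIDR libraries had 98 and 110 peaks, against 42 and 40 in the WT libraries. Per 10000 peaks of the list these were 55.7 and 58.4 in del-cIDR, against 21.1 and 24.0 in WT. The means were 57.1 ± 1.87 in del-cIDR and 22.6 ± 2.07 in WT (SD, n = 2 each), a 2.53-fold ratio with no overlap between the genotypes. With peaks within 5 kb joined it was 1.39, from 49 and 51 del-cIDR against 30 and 26 WT joined peaks. Among peaks enriched 4-fold or more it was 4.90, from 17 and 15 del-cIDR against 4 and 5 WT peaks. These last counts are small.

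Summits of the proximal block lay mostly in its upper part. Its 8 windows of 500 kb averaged 12.25 and 13.75 del-cIDR summits, or 2.48 and 2.58 times the mean of tested windows. The WT average was 5.25 and 5 summits, or 0.928 and 1.05 times the mean. By medians the block's windows held 11.5 and 11 del-cIDR and 4.5 and 4 WT summits, against genome medians of 3 and 3 del-cIDR and 3 and 2 WT summits, so the WT windows were near the genome by the mean and above it by the median. All 8 windows had both del-cIDR libraries above both WT libraries per 10000 peaks (genome-wide 38.8%). Without scaling it was 7, since the window from 68 to 68.5 Mb held 1 and 2 del-cIDR against 1 and 0 WT summits. The window from 69.5 to 70 Mb led with 35 and 35 del-cIDR against 15 and 17 WT summits and the lowest ratio of the block, 2.17. From 68.5 to 69 Mb there were 17 and 23 against 6 and 7, and from 69 to 69.5 Mb 14 and 22 against 7 and 6. The first 3 windows, from 67 to 68.5 Mb, together held under 10 summits in each library, with 4 and 4 against 1 and 2 in the first of them. Windows with more del-cIDR summits also had more WT summits, with a Spearman correlation of 0.988 over the 8 windows as a description. A gap of 383 kb without summits in any list, from 69901607 to 70284703, separated the 2 upper groups of peaks.

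Just outside both edges all libraries had few peaks. Just outside the lower edge, from 66 to 67 Mb, there were 5 and 1 del-cIDR against 1 and 0 WT summits, and just inside, from 67 to 68 Mb, 6 and 6 against 2 and 2. Just inside the upper edge, from 70 to 71 Mb, there were 25 and 22 against 11 and 8, and just outside, from 71 to 72 Mb, 5 and 2 against 3 and 1.

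Proximal peaks had median widths of 379.5 and 369.5 bp in the del-cIDR libraries, against 349.5 and 307.5 bp in the WT libraries. These medians averaged 374.5 ± 7.07 bp in del-cIDR and 328.5 ± 29.7 bp in WT (SD, n = 2 each), with both del-cIDR values above both WT ones. The lists also differed in their shortest peak, 300 and 301 bp in del-cIDR against 297 and 243 bp in WT. Its part in this order was not tested. No del-cIDR peak reached 2 kb, against 3 and 1 WT peaks (16 and 26 against 825 and 361 in the whole lists). The widest were 1277 and 1607 bp in del-cIDR and 2932 and 2973 bp in WT. The 2 widest WT peaks were the same site, from 70296909 to 70299840 in replicate 1, with 5.92-fold and 5.70-fold enrichment, and it overlapped a peak of del-cIDR replicate 2. Covered length was 44822 and 51940 bp in del-cIDR, against 26523 and 17004 bp in WT.

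The 158 merged regions of the proximal block divided much as in the distal block. Del-cIDR alone held 47 regions in both replicates (29.7%, against 17.7% of all regions), WT alone 9 (5.70%, against 17.5%) and all 4 libraries 8 (5.06%, against 4.7%). A single del-cIDR list held 23 and 36 further regions (14.6% and 22.8%, against 12.6% and 15.0% of all regions). A single WT list held 11 and 4 (6.96% and 2.53%, against 18.7% and 6.54%). Another 20 regions mixed the genotypes without holding all 4 libraries, as did 3149 of all 43029 regions. Of the 66 regions in both del-cIDR lists, 71.2% had no WT peak (exact 95% binomial interval 58.7 to 81.7%), and of the 23 in both WT lists, 39.1% had no del-cIDR peak (19.7 to 61.5%). The genome-wide shares were 69.3% and 71.8%.

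Among del-cIDR regions of the proximal block narrow sites led, and 5 of the 6 best were at most 310 bp wide, against 10 of all 47 regions of the class (21.3%). The first lay from 68927876 to 68928177, where enrichment was 3.09-fold and 3.30-fold, at ranks 559 and 654. A site from 69323883 to 69324183 had 31.4-fold and 27.3-fold, the highest of any del-cIDR-only region in either block, and lay 27.1 kb from a WT peak. Sites of 301 bp also lay from 68021224 to 68021524, with 5.08-fold and 11.2-fold, and from 67460905 to 67461205, with 12.9-fold and 16.02-fold. Both lay over 30 kb from a WT peak, in the thinly filled lower part of the block. The other members of the 6 were from 70542544 to 70542852, with 2.63-fold and 3.20-fold, and from 69539824 to 69540270, with 4.35-fold and 3.28-fold. They lay 1.65 and 3.69 kb from a WT peak. The widest del-cIDR region, from 69829502 to 69830986, measured 1485 bp.

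The leading WT regions of the proximal block were weak by comparison with those of the distal block. From 69627757 to 69628108 enrichment was 2.71-fold and 2.84-fold, from 68878085 to 68879312 it was 3.35-fold and 2.19-fold, and from 69294562 to 69296806, the widest at 2245 bp, it was 3.10-fold and 4.06-fold. None of the 9 regions of this class had at least 4-fold enrichment in both replicates, against 8 of 18 in the distal block. The share over all WT-only regions of the series was not computed, so these small counts compare the blocks only. In the site from 69001800 to 69002112, shared by all 4 libraries, enrichment reached 5.74-fold and 15.96-fold in the del-cIDR libraries and 2.56-fold and 3.57-fold in WT. Shared regions from 69571906 to 69572711 and from 69810511 to 69812043 had 3.08-fold to 5.26-fold in del-cIDR and 2.58-fold to 3.39-fold in WT libraries. The widest shared region measured 1564 bp, from 70284426 to 70285989, and opened the upper group of peaks behind the gap.

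Of 20 proximal clusters with at least 4 summits, 13 had both del-cIDR libraries above both WT libraries and 2 the reverse (genome-wide 30.6% and 34.8%). The cluster with most summits, from 68877236 to 68891101, held 6 and 6 del-cIDR against 4 and 5 WT summits. Shortly after it, a cluster of 30.0 kb from 68912209 to 68942205 held 7 and 12 del-cIDR summits and none listed for WT. The best ranked del-cIDR region lay inside it. From 69452599 to 69482438 there were 6 and 11 against 2 and 1. WT led from 69625019 to 69636683, with 3 and 2 del-cIDR against 5 and 4 WT summits. Neighbouring clusters thus differed in which genotype they favoured.

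Most WT-only regions of the blocks lay close to a del-cIDR peak, while distal del-cIDR-only regions were near the share of the rest of the genome. Among del-cIDR-only regions, 36.9% in the distal and 44.7% in the proximal block had a WT peak within 10 kb, against 36.0% in the rest of the genome. Over 50 kb from any WT peak were 28.8% and 6.38% of them in the distal and proximal block, against 31.8% elsewhere. Among WT-only regions, 11 of 18 distal and 7 of 9 proximal ones had a del-cIDR peak within 10 kb, against 37.4% elsewhere. None of them was over 50 kb from one, against 30.5% elsewhere. The other genotype's peaks also differed in density between these places, and the part of density in the distances was not tested.

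By the median, replicate summits lay closer together in del-cIDR-only than in WT-only regions. In del-cIDR-only regions with a single peak per library the median distance between replicate summits was 24 bp in the distal and 45 bp in the proximal block, against 33 bp in the rest of the genome. In WT-only regions it was 49 and 73.5 bp, against 49 bp elsewhere. In regions of all 4 libraries it was 96.5 and 123 bp, against 102 bp elsewhere. Within 50 bp were 59.6% of 99 distal and 55.8% of 43 proximal del-cIDR-only regions, near the 57.3% in the rest of the genome. Among WT-only regions it was 50% of 16 distal and 37.5% of 8 proximal ones, against 51.3% elsewhere. All 4 summits lay within 50 bp in 21.4% of 14 distal and 16.7% of 6 proximal regions of all 4 libraries, against 22.1% elsewhere. These distances are given as a description.

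Setting the peaks of each block against the rest of the same library is apart from the genotype contrast, and here all libraries shared a difference. Strongly enriched peaks, of at least 4-fold, made up 18.2% and 14.9% of distal del-cIDR peaks, against 31.8% and 30.7% in the rest of those lists. In the WT libraries they made up 25% and 30% of distal peaks, against 46.0% and 41.9% elsewhere. In the proximal block the shares were 17.3% and 13.6% of del-cIDR peaks, against the same 31.8% and 30.7% elsewhere, and 9.52% and 12.5% of WT peaks, against 46.0% and 41.9%. All 4 libraries were lower in both blocks, by 15.6 ± 3.96 percentage points in the distal and 24.3 ± 10.4 in the proximal block (SD, n = 4 libraries). A two-sided exact sign-flip test gave p = 0.13 for each, the smallest that 4 libraries allow, and 0.5 after Benjamini-Hochberg adjustment over 8 comparisons. Against the rest of chromosome 11 alone the differences were smaller, -9.27 points in the distal and -18.1 in the proximal block (exact p = 0.13 each, adjusted p = 0.333). This measure was added after the values were seen, so its p-values are given as a description and nothing is concluded from them.

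**Figure D5:**
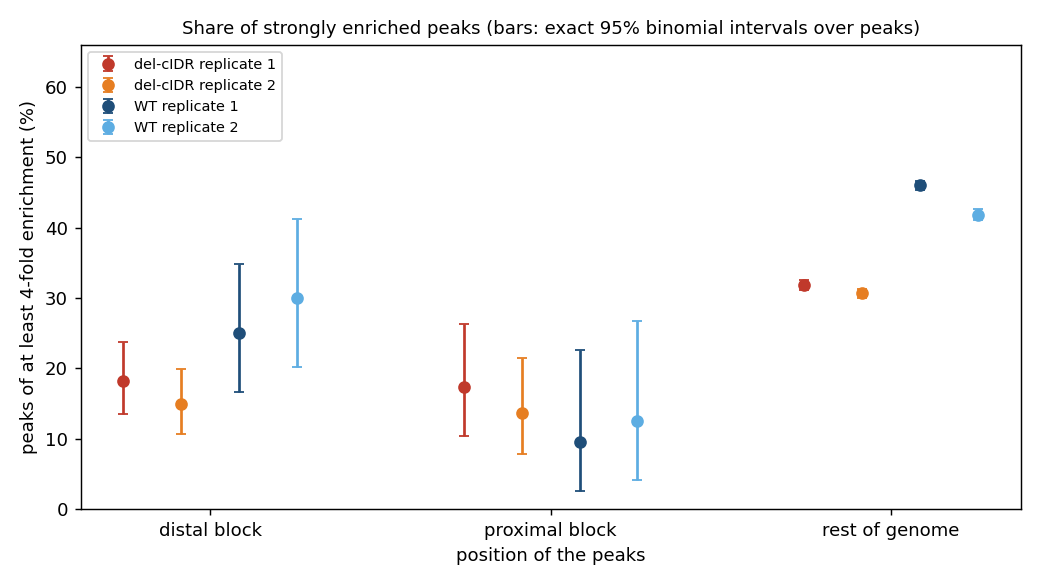
Percent of peaks of at least 4-fold enrichment (vertical axis) by library in the distal block, the proximal block and the rest of the genome, with exact 95% binomial intervals over peaks. Every library is lower in both blocks than in the rest of its own list.

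Against the rest of the genome, the other 3 properties compared did not differ in the same direction in all 4 libraries. Median width in the distal block was 23 and 44 bp higher than in the rest of the list in del-cIDR and differed by -15 and -5.5 bp in WT (two-sided exact sign-flip p = 0.5, adjusted p = 0.8). In the proximal block it was 55.5 and 39.5 bp higher in del-cIDR and differed by -30.5 and 16.5 bp in WT (exact p = 0.375, adjusted p = 0.8). The share of peaks overlapped by the other replicate came to 66.1% and 62.1% among distal del-cIDR peaks, against 49.0% and 70% among distal WT peaks. Among proximal peaks it came to 72.4% and 61.8% in del-cIDR, against 54.8% and 72.5% in WT. It differed from the rest of the lists by -1.78 and 1.82 points on average in the distal and proximal block (exact p = 0.5 and 0.625, adjusted p = 0.8 and 0.833). The median rank by −log10 q was between 45.2% and 54.7% of the list length in every library and block (exact p = 1 and 0.75, adjusted p = 1 and 0.857). Against the rest of chromosome 11 alone, the distal median rank was lower, nearer the top of the list, in all 4 libraries, with differences of -0.47 and -0.38 points in del-cIDR and -7.84 and -3.07 points in WT (exact p = 0.13, adjusted p = 0.333).

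The top of the lists was filled unequally. Peaks among the best 10% of their list made up 3.81% and 2.82% of distal del-cIDR peaks, against 10.4% and 12.5% of distal WT peaks. The distal excess of del-cIDR peaks thus lay below the top of the lists. In the proximal block such peaks made up 10.2% and 10.9% in del-cIDR, against 4.76% and 5% in WT, of which there were 2 in each library. The order of the genotypes was therefore opposite in the 2 blocks, which was described and not tested.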

How the data were processed

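The submitters' processing notes name MACS2, UMI-tools, STAR and cutadapt and the build GRCm39, and the sources used here give no versions, settings or roles. The authors deposited a peak list per immunoprecipitate, with a fold enrichment (a ratio over the caller's background), −log10 p and q values, a score and the summit's distance from the peak start, which is of another kind. The sources used here do not say whether the inputs served as the caller's control. Lists named wt were taken as WT, with the full-length protein, and those named KI as del-cIDR, the only other genotype.

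The lowest deposited −log10 q was 1.31 to 1.34. A peak belonged to a block if its summit lay there. Peaks were merged at 1 bp overlap, ranked within their list by −log10 q, and counted in 500 kb windows with Python 3.11.15, pandas 2.3.3 and scipy 1.17.1. Counting was tested on simulated lists. The genotype contrast was not tested, since it chose the blocks. Blocks were compared with the rest of the same library by exact sign flips over 4 libraries. Named regions were, per block, the best mean ranks of each class (10, 5 and 5 distal, 6, 3 and 3 proximal for del-cIDR-only, WT-only and all 4) and the widest. The widest of a class, the richest and the emptiest windows were also named. Blocks, lists and rules were chosen with earlier results of these data known. Gene lists were not used, since the annotation used here is on GRCm38.p6, and for the same reason no sequence is shown.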

Additional observations from a re-analysis of the deposited data

How the results depend on the processing

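The log2 ratio of summits per 10000, del-cIDR over WT, was 1.46 in the distal and 1.34 in the proximal block and stayed above 0 under every alternative run. It was 1.51 and 1.42 with a −log10 q of at least 5, 1.22 and 2.29 with at least 4-fold enrichment, 1.51 and 1.40 with every list held to equal length, and 0.80 and 0.48 with peaks within 5 kb joined. Leaving out a replicate gave 1.45 to 1.48 and 1.25 to 1.43, and leaving out the richest window, an alternative added after the values were seen, 1.45 and 1.46. The share of regions in both del-cIDR lists without a WT peak was 77.6% and 71.2%. With at least 4-fold enrichment it was 42.9% in the distal (9 of 21) and 63.6% in the proximal block (7 of 11). It was 65.9% (56 of 85) and 48.6% (18 of 37) with peaks within 5 kb joined. The genome-wide shares at both of these settings were not computed, so the values cannot be set against the genome-wide share given above. Leaving out a replicate gave 81.1 to 83.9% and 76.3 to 80.3%. Without a WT list the lack of a WT peak is easier to meet, so a higher share was largely set in advance. Without a del-cIDR list the share is over the regions of a single list. These values are therefore not a check of the share named above. Windows with del-cIDR above WT numbered 12 distal and 8 proximal, and with other sizes 7 of 7 and 4 of 4 at 1 Mb and 21 of 25 and 10 of 11 at 250 kb. The count was 10 of 13 distal and 4 of 5 proximal with at least 4-fold enrichment. With peaks within 5 kb joined it was 10 of 13 and 6 of 8. With a replicate left out it was 12 to 13 distal and 8 proximal, where fewer libraries could only keep or raise it. The median width difference, 35.25 and 46 bp, was -1 and -411 bp with at least 4-fold enrichment and -71.75 and 106.5 bp with peaks within 5 kb joined. It ranged from -4.5 to 75 bp and from 25 to 67 bp with a replicate left out. Against the rest of chromosome 11, the distal difference in replicate overlap was 0.49 in place of -1.78 percentage points, the distal difference in median rank -2.94 in place of -0.26, and the proximal difference in median rank -2.05 in place of 0.63. The cause of these changes was not tested.

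No paired analysis was possible because the genotype contrast chose the blocks and was given no test, so that there was no fit to hold a replicate block. Read depth is unknown, and its bearing on peak numbers was not tested.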

Other observations

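Other stretches of chromosome 11 outside the blocks also favoured a genotype. From 115 to 117 Mb the del-cIDR libraries had 82 and 79 summits, against 29 and 14 in the WT libraries. From 119 to 120.5 Mb the order was opposite, with 36 and 49 del-cIDR against 116 and 108 WT summits. The adjoining window from 120.5 to 121 Mb held 42 and 47 del-cIDR against 24 and 19 WT summits. Over the rest of the chromosome del-cIDR had 652 and 633 and WT 562 and 542 peaks per 10000 of the list. These stretches were picked after their values were seen.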
